A study of Ambystoma mexicanum with 198 samples.

Results

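The genes described here encode the parts of the sarcomere and a set of proteins that support it in muscle fibers. They were chosen by symbol, from patterns that take in the myosin heavy and light chains, troponins, tropomyosins, myosin binding proteins, myomesins, myozenins, alpha-actinins, tropomodulins and leiomodins, titin, nebulin, desmin, muscle creatine kinase, parvalbumin, calsequestrins, ryanodine receptors and SERCA pumps. Of the 8639 genes with 1 symbol among the probes, 57 matched, and each was read from the probe with the highest mean over all arrays. By known role 46 are striated muscle genes, 2 are smooth muscle genes and 8 are non-muscle or widely expressed isoforms of the same families. Among the 46, *tpm1*, *tmod1*, *des* and *cryab* are also expressed outside striated muscle. The remaining match, *tnni3k*, is a cardiac kinase that shares only the start of a troponin symbol. Genes such as *acta1*, *tcap*, *tpm2* and the fast skeletal myosin heavy chains were not analysed here.

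Tissue was the distal 1 mm of axolotl (*Ambystoma mexicanum*) forelimbs amputated through the middle of the zeugopod, the lower arm, with bones left untrimmed. RNA of single samples from 6 to 10 month old animals was hybridised to a custom Affymetrix GeneChip at 20 time points from 0 to 28 days post-amputation (DPA), with 10 arrays per time point and 9 at 16 and 28 DPA. All animals were amputated, and day 0 tissue, collected at amputation, is the reference. The sources do not state which limbs came from the same animal, so p-values measure the spread between these samples.

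In a striated fiber, thick filaments of myosin slide along thin filaments of actin, tropomyosin and troponin when calcium is released from the sarcoplasmic reticulum. Thin filaments are anchored at the Z-disc by alpha-actinin, and titin and nebulin run along the thick and thin filaments. Fast and slow fibers use different isoforms of many of these proteins, whereas non-muscle cells build contractile bundles from their own myosins and alpha-actinins. In salamander limbs the fibers near the cut are broken down and blastema cells gather distal to them, before new muscle differentiates late in regeneration.

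Levels are given on the log2 scale of the normalised arrays, on which the 198 arrays had medians of 5.70 to 5.90 and the 5th percentile of probe means was 3.47. No 2 arrays held identical values. Of the 0.5 DPA arrays, replicates 1 and 10 carry a second label that names another time (0 and 1 DPA). Sample codes divide each time point into replicates 1 to 5 and replicates 6 to 10, and the meaning of the codes is not given in the sources used here. A member was called when limma, fitted on the 2 time points compared, gave a Benjamini-Hochberg adjusted p under 0.05 over 20035 probes and a log2 difference of at least 0.58, a fold of 1.5. Probes differ in how brightly they report a transcript, so no level of 1 gene is read as higher or lower expression than another, and brightness serves only to choose or order probes.

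From day 0 to 18 DPA, 42 of the 46 striated muscle genes fell and none rose, with a median log2 difference of -6.77 against 0.06 over all probes. Over all probes 8.7% fell and 11.6% rose in that comparison. The 4 striated genes that did not pass were *myl7*, *tnni3*, *ryr1* and *ryr2*. Of these *tnni3*, *ryr1* and *ryr2* were dim already on day 0, so a decrease could be missed. In this whole-tissue material, fewer muscle cells and less RNA per muscle cell cannot be told apart. The tissue sampled also changed with time. The paper states that, as the bud grew out, later samples held proportionally more regenerated tissue and early samples more stump tissue. The part of this shift in the decreases was not tested.

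**Figure D1:**
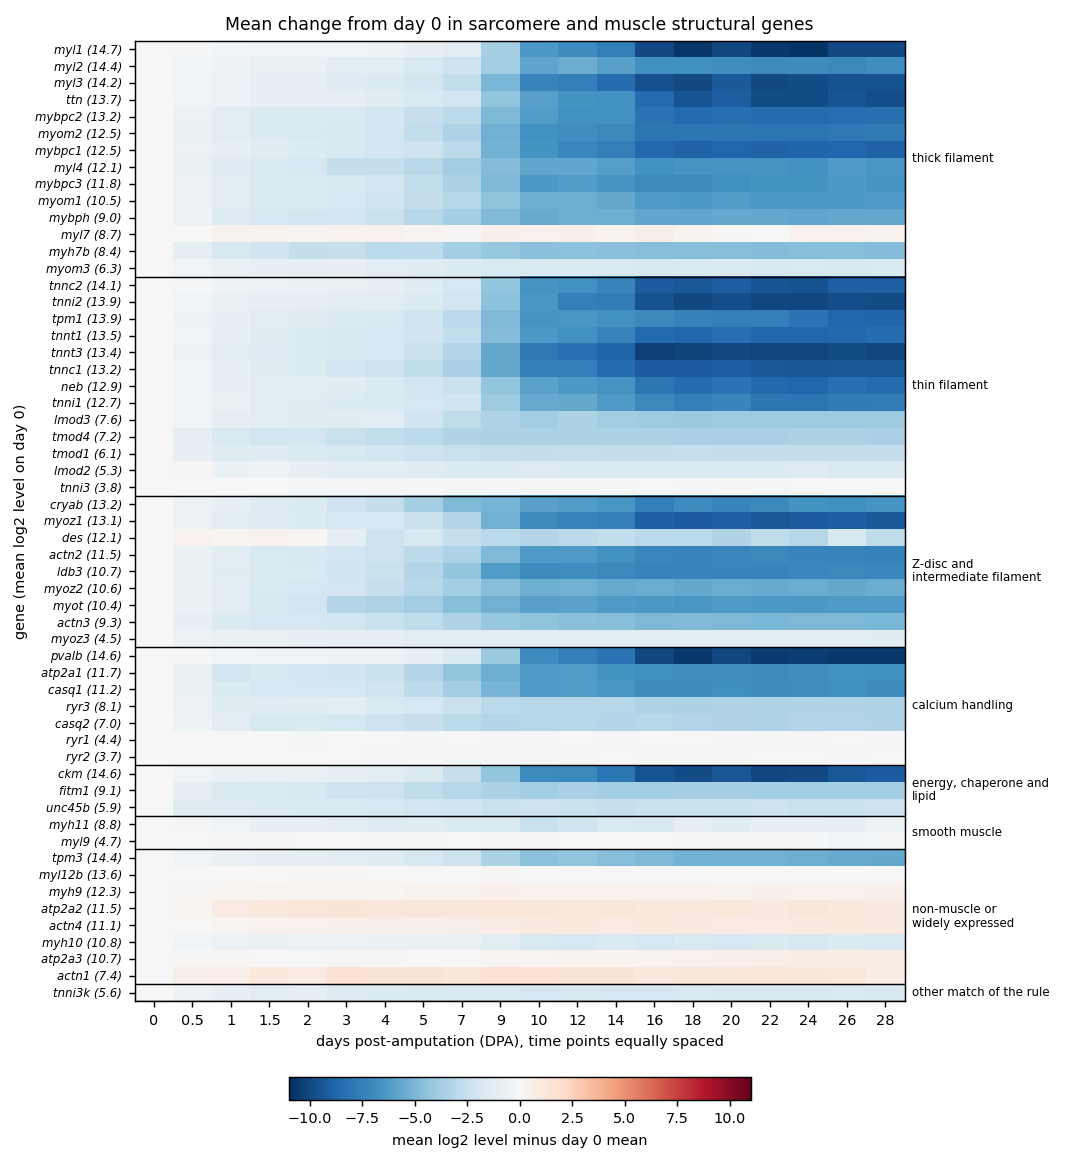
Mean log2 level at each time point (columns, equally spaced) minus the day 0 mean for all 57 members (rows, with the day 0 mean in parentheses), grouped by role; blue is lower and red is higher than day 0. The bright striated genes darken between 7 and 16 DPA and stay dark to 28 DPA, while *myl7* and most non-muscle isoforms stay near or above day 0.

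Among thick filament genes, 13 of 14 fell from day 0 to 18 DPA, with a median difference of -6.83. The brightest was *myl1*, an essential myosin light chain of fast fibers. Its day 0 arrays ran from 14.6 to 14.8 with a median of 14.7, and its 18 DPA arrays from 3.50 to 5.10 with a median of 3.91. These ranges do not overlap, and the difference was -10.71 ± 0.14 (SE, limma adjusted p = 3.02e-24). Titin, *ttn*, the elastic ruler of the sarcomere, had day 0 values of 13.5 to 13.7 and 18 DPA values of 3.52 to 6.39. The regulatory light chain *myl2* fell by 6.71 on the log2 scale and ran from 7.10 to 8.18 at 18 DPA. The member that stood apart was *myl7*, known in mammals as the atrial regulatory light chain, which measured 8.72 ± 0.46 (SD, n = 10) on day 0 and 9.08 ± 0.38 (SD, n = 10) at 18 DPA.

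Among thin filament genes, 12 of 13 fell over the same interval, with a median of -7.63. Fast troponin C, *tnnc2*, the calcium sensor of fast fibers, ranged from 14.0 to 14.3 on day 0 and from 4.12 to 5.68 at 18 DPA. Fast troponin T, *tnnt3*, which ties troponin to tropomyosin, went from between 13.2 and 13.7 to between 2.97 and 3.47, a difference of -10.14 ± 0.08 (SE, limma adjusted p = 3.56e-28). Groups did not overlap for either gene. The 18 DPA values of *tnnt3* lay at or below the 5th percentile of probe means, where a low level cannot be told from none, so decreases that end there are lower bounds on the change. The cardiac troponin I gene *tnni3* was dim throughout, at 3.84 ± 0.12 on day 0 and 3.68 ± 0.14 at 18 DPA (SD, n = 10 each). In the RefSeq annotation of the UKY_AmexF1_1 assembly, *tnnt3* and *tnni2*, both fast genes, lie with 2 protein-coding genes between them, and *tnnt1* and *tnni3* are direct neighbours.

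All 9 genes of the Z-disc and intermediate filaments fell by 18 DPA, with a median of -6.36. The brightest on day 0 was *cryab*, a small heat shock protein that protects desmin and Z-disc proteins, with a median of 13.3 on day 0 and 6.12 at 18 DPA. By 2 DPA 8 of the 9 had fallen, and the exception was desmin, *des*, the muscle intermediate filament, on its brightest probe. This probe measured 12.1 ± 0.56 on day 0, 12.4 ± 0.65 at 2 DPA and 9.14 ± 1.39 at 18 DPA (SD, n = 10 each), and its 18 DPA arrays spread from 6.93 to 11.1. A second *des* probe, described below, fell further by 18 DPA.

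Of the 7 calcium handling genes 5 fell, with *ryr1* and *ryr2*, ryanodine receptors, at 3.57 to 4.41 on average at both ends. Probes this dim on day 0 have little room to fall, so *ryr1* and *ryr2* are not read as retained. Parvalbumin, *pvalb*, a calcium buffer of fast fibers, had day 0 values of 14.5 to 14.8 and 18 DPA values of 3.74 to 4.51, a difference of -10.59 ± 0.08 (SE, limma adjusted p = 3.34e-28). All 3 genes of energy supply, chaperone and lipid roles fell. In this group *ckm*, the creatine kinase that regenerates ATP in fibers, went from a median of 14.7 to 4.77, and *unc45b*, a chaperone that folds myosin, from 5.83 to 3.41.

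Early decreases of the striated genes were examined at 0.5 and 2 DPA. At 0.5 DPA 6 members fell and none rose, against 1.35% and 2.8% of all probes. At an unadjusted p under 0.05, 37 of the 57 members were lower and none higher, where 22.3% of all probes reached that p in either direction, and the median over the 46 striated genes was -0.61 against -0.01 over all probes. The 6 were *unc45b*, *fitm1*, *ldb3*, *myom2*, *cryab* and *myoz3*. The largest difference was that of *unc45b*, at -1.33 ± 0.29 (SE, limma adjusted p = 0.00413), followed by *myh7b*, a myosin heavy chain, at -0.98 ± 0.45 (SE, limma adjusted p = 0.202), which did not pass. This count depended on the arrays: it was 11 without the 2 arrays of conflicting labels, 16 without 0.5 DPA replicate 10, 13 without replicate 2, 10 without replicate 3, and 3 without 0.5 DPA replicate 1, 4, 6, 7 or 8 or without day 0 replicate 5, 6, 7, 9 or 10. For *des* the 0.5 DPA arrays lay between 12.1 and 13.4 except replicate 10 at 9.70, and its difference was 0.48 with all arrays, which did not pass, and 0.79 without the 2 arrays of conflicting labels, which did. With the mean of all its probes it was -0.081. *actn1*, a non-muscle alpha-actinin, had a difference of 0.66 ± 0.38 (SE, limma adjusted p = 0.338) and passed as higher with the replicate number or the set of replicates as a block.

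By 2 DPA 43 members fell and 1, *atp2a2*, rose, against 7.54% and 6.7% of all probes. The 39 striated genes among those that fell came from every role group. The largest decreases were in *myh7b*, with -2.58 ± 0.34, *myot*, a Z-disc protein that binds alpha-actinin, with -2.08 ± 0.29, and *atp2a1*, the SERCA pump of fast fibers, with -2.04 ± 0.30 (SE, limma adjusted p of at most 1.81e-05). By contrast *myl1* and *pvalb* had moved by only -0.42 ± 0.10 and -0.51 ± 0.18 (SE, limma adjusted p = 0.00278 and 0.0296), short of the fold threshold.

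The early differences were set against the level on day 0, as a description across probes. Among the 42 striated genes that fell by 18 DPA, the 15 with a day 0 mean of 13 and over had a median difference of -0.98 at 2 DPA (-1.59 to -0.42), the 16 between 9 and 13 one of -1.69 (-2.08 to 0.22), and the 11 under 9 one of -1.61 (-2.58 to -0.90). These ranges overlap, and the correlation of difference with level was 0.32 over the 42 genes. By 18 DPA the medians were -9.33, -6.89 and -3.25, in the order of the day 0 level. A dim probe has less room to fall above the bottom of the scale, and the part of this in the order was not tested. Smaller early differences of the brightest probe were also seen between probes of 1 gene at the top of the scale: the 2 probes of *myl1*, with day 0 means of 14.7 and 12.3, differed by -0.42 and -2.11 at 2 DPA, and the 3 brightest of *pvalb*, at 14.6, 14.0 and 12.9, by -0.51, -1.0 and -1.58. Whether the brightest probes read their targets in proportion was not tested.

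**Figure D2:**
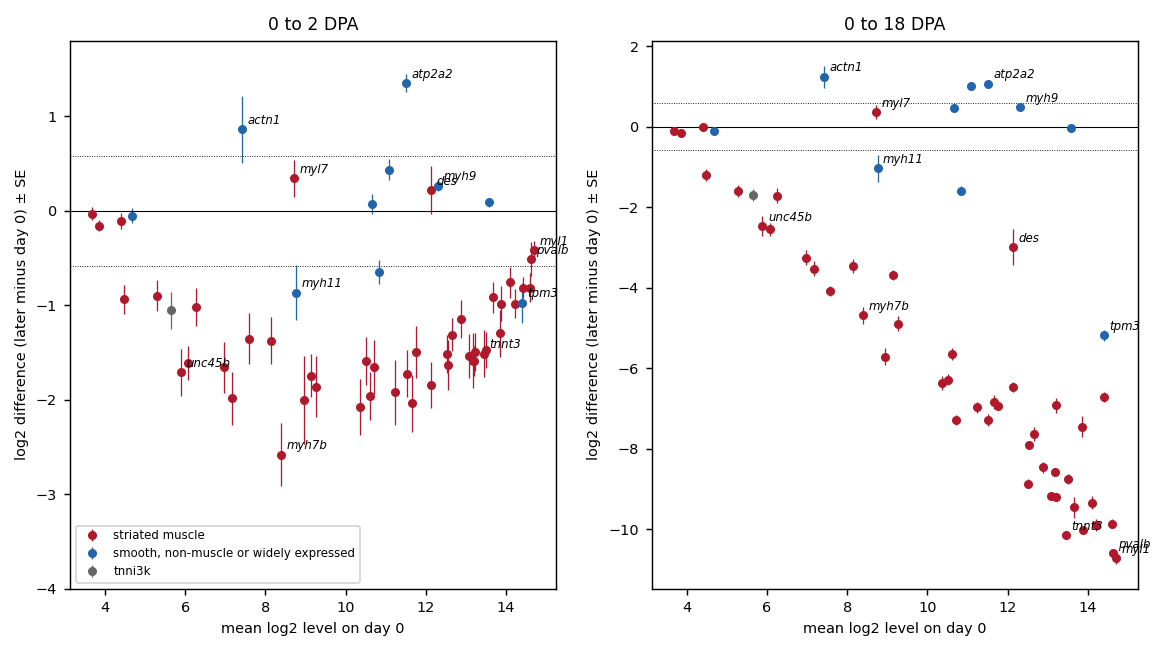
Log2 difference from day 0 (later mean minus day 0 mean, bars are SE) against the day 0 mean for each member at 2 DPA (left) and 18 DPA (right); dotted lines mark ±0.58. At 2 DPA *myl1* and *pvalb*, at the right, lie nearer to 0 than striated genes of middle level, at 18 DPA they lie lowest, and *atp2a2* and *actn1* lie above 0 at both times.

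The genes also differed in when their mean first reached the midpoint between its day 0 level and its lowest mean, on the log2 scale. *unc45b* was there at 0.5 DPA and *myoz3* at 1 DPA, *casq2*, *myom3*, *tmod1* and *tmod4* at 1.5 DPA, and *lmod2* and *myh7b* at 2 DPA. *tmod1* and *tmod4* encode tropomodulins, which cap thin filaments, and *lmod2* a leiomodin, of which the other, *lmod3*, reached its midpoint at 5 DPA. At 9 DPA 13 genes reached it, among them *myl2*, *myl3*, *tnnc1*, *tnnt1* and *tnnt3*. The last 8, at 10 DPA, were *ckm*, *myl1*, *neb*, *pvalb*, *tnnc2*, *tnni1*, *tnni2* and *ttn*. A dim probe reaches its midpoint after a smaller fall, as with *unc45b*, at 5.89 on day 0, against *myl1*, at 14.7. The means at 9 and 10 DPA also average arrays that differed widely. These times are therefore not read as an order of loss.

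Fast and slow counterparts were set side by side in 6 families. At 7 DPA slow troponin C, *tnnc1*, had changed by -3.54 and fast *tnnc2* by -1.96 on the log2 scale from day 0, and the slow essential light chain *myl3* by -2.71 against -1.27 for *myl1*. For troponin T the order was the other way, with changes of -3.19 for fast *tnnt3* and -2.75 for slow *tnnt1*, and for troponin I they were -2.08 for fast *tnni2* and -2.22 for slow *tnni1*. Myosin binding protein C was about equal, with -2.94 for fast *mybpc2* and -2.88 for slow *mybpc1*, and calsequestrin gave -3.73 for fast *casq1* and -2.95 for slow *casq2*. By 18 DPA the first 2 families stood the other way, with -9.33 for *tnnc2* and -9.19 for *tnnc1*, and -10.71 for *myl1* and -9.89 for *myl3*. Each gene was read from its brightest probe, and the order can depend on that choice. At 2 DPA the brightest *myl1* probe had changed by -0.42 and *myl3* by -0.98. The second *myl1* probe, described above, had fallen by more than either. No single direction held over families or times, and these differences were not tested.

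By 9 DPA 46 members had fallen from day 0 and 3 had risen, against 9.35% and 10.5% of all probes. Of the 46 striated genes 42 fell, with a median of -4.34. From 3 to 9 DPA alone 41 members fell and none rose, against 2.91% and 2.4% of all probes. The median difference over the 46 striated genes was -2.69. *ldb3*, a PDZ-LIM protein of the Z-disc, had the largest decrease, -3.94 ± 0.32 (SE, limma adjusted p = 1.32e-07), ahead of *tnnt3* at -3.85 ± 0.90 and *myl3* at -3.67 ± 0.86. The calls of *myl1* (-3.16 ± 1.01, SE, limma adjusted p = 0.0374) and *pvalb* (-3.51 ± 1.05, SE, limma adjusted p = 0.0271) did not hold when some single arrays were left out. That of *myl1* was lost without any 1 of 3 DPA replicates 1 to 9 or of 9 DPA replicates 1 to 3, and that of *pvalb* without 9 DPA replicate 2 or 3, with differences of -2.47 to -3.17 and of -2.99 and -3.09. Both calls were also lost by the t test of the paper's methods, at p of at most 0.01 and after Benjamini-Hochberg adjustment. In replicates 1 to 5 alone *myl1* did not pass either, with a difference of -5.20.

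The spread between arrays was large from 9 to 14 DPA. On day 0 none of the 46 striated genes had an SD over 1, from 0.5 to 7 DPA 2 to 6 did except for 16 at 5 DPA, and at 9, 10, 12 and 14 DPA 26, 18, 25 and 20 did. The median SD was 1.18 at 9 DPA and 1.14 at 12 DPA, and at 5 DPA, with 0.87, it was close to the 0.85 of 10 DPA and above the 0.75 of 14 DPA. An SD over 2 occurred at 9, 10, 12 and 14 DPA, in 15, 8, 16 and 7 genes, and in 1 gene at 28 DPA. From 16 to 28 DPA the number was 1 to 5. At 9 DPA *myl1* measured 4.89, 6.90 and 6.87 in replicates 1, 2 and 3 and 12.6 to 13.5 in the other 7 arrays. Over the same arrays *pvalb* measured 4.01, 6.71 and 5.88 against 12.0 to 13.6, and *ckm* 5.68, 6.66 and 6.87 against 11.2 to 12.4. No array lay between the low and the high values of these genes. The 3 low arrays were all among replicates 1 to 5, of which replicates 4 and 5 were high. No array of replicates 6 to 10 was low.

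From 10 to 14 DPA more arrays lay between the ranges of 7 and 24 DPA than at 9 DPA. For *myl1*, 8 of 10 arrays at 10 DPA and 6 of 10 at both 12 and 14 DPA lay between its lowest 7 DPA array and its highest 24 DPA array, and for *ckm* 8, 6 and 7 did. At 9 DPA 3 did for each gene, and these were the low arrays. Such counts do not show whether the arrays of a time point fall into groups. At 10 DPA *ckm* was at 12.3 in replicate 2, with the next array at 8.68. The highest values were found in single arrays. *myl1* stood at 13.4 in replicate 2 at 10 DPA, at 13.6 and 13.5 in replicates 5 and 8 at 12 DPA and at 12.7 in replicate 7 at 14 DPA, where the lowest arrays of the same time points measured 3.79, 3.87 and 3.53. *tnnt3* in those 4 arrays measured 9.50, 10.1, 10.0 and 8.77. By 16 DPA no array of *myl1* exceeded 6.60.

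**Figure D3:**
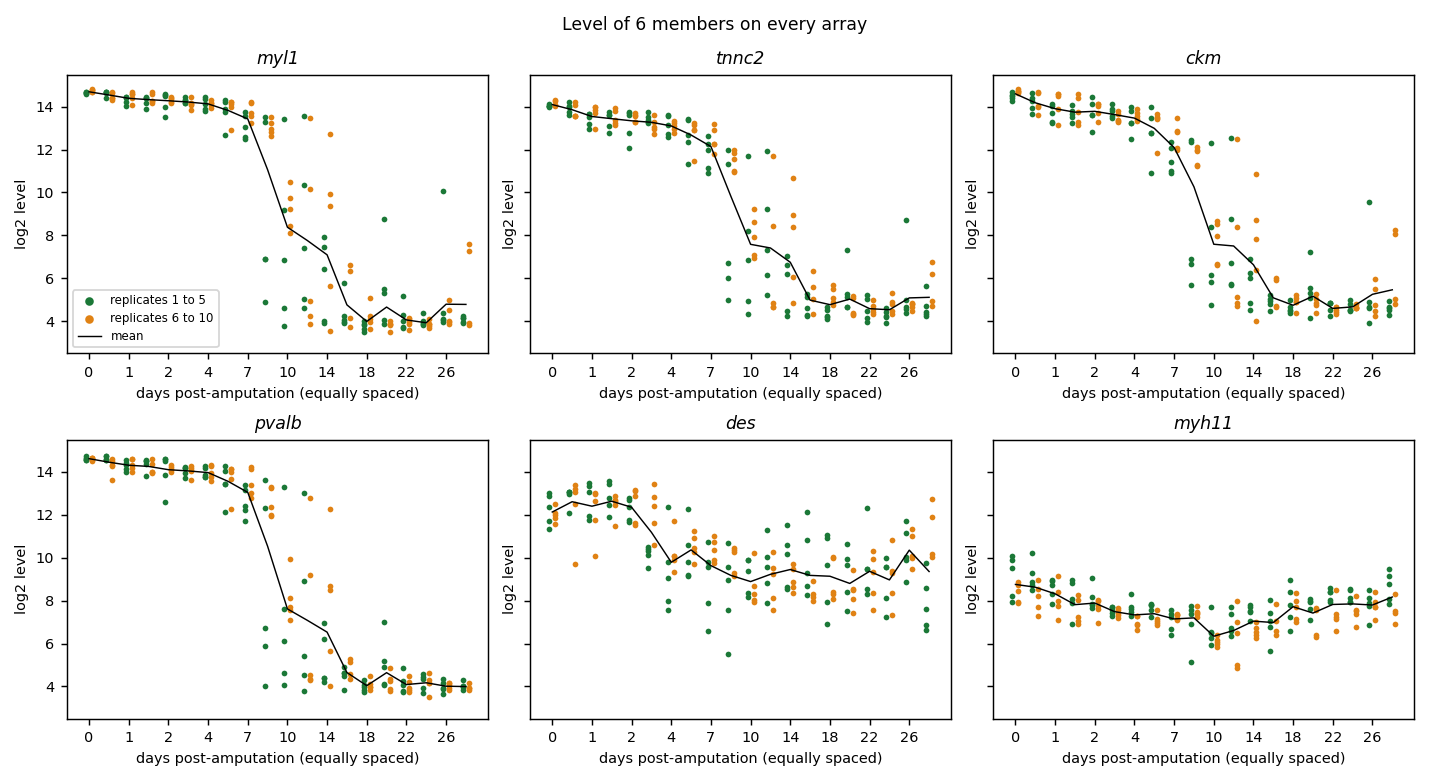
Log2 level on every array at each time point (equally spaced) for 6 members, with replicates 1 to 5 in green, replicates 6 to 10 in orange and the mean as a line. *myl1*, *tnnc2*, *ckm* and *pvalb* are tight on day 0, lie in 2 groups of arrays at 9 DPA, spread from high to low with most arrays in between at 10 DPA, and are low from 16 DPA except in single late arrays, while *des* is spread at all later times and *myh11* is lowest at 10 DPA.

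Within these 4 time points many of the striated genes, but not all, moved together from array to array. Over 40 arrays, after the mean of each time point was taken off, the correlation with *myl1* was taken. It had a median of 0.82 over the other 45 striated genes, with 23 above 0.8, 31 above 0.5 and a lowest of -0.31. Low values included 0.42 for *myh7b*, 0.31 for *unc45b*, 0.21 for *des* and 0.20 for *cryab*. The 10 smooth, non-muscle or widely expressed members had a median of 0.07, with 1 above 0.8 and 3 above 0.5. These 3 were *tpm3* at 0.88, *myh10* at 0.76 and *myh11* at 0.51. At 7 DPA alone the 45 striated genes had a median of 0.83, with 26 above 0.8. At 24 DPA alone their median was -0.05, with 0 above 0.8 (10 arrays each). These points share the tissue sample and its normalisation, and the values are given as a description. Summed levels of other gene lists, in which the brightest genes weigh most, were also set against *myl1* over the 40 arrays of the 4 time points. The correlation was 0.84 for 21 other skeletal muscle genes, 0.63 for 7 smooth muscle and pericyte genes and 0.20 for 7 muscle regulators. It was 0.65 for 2 Schwann cell genes, 0.70 for 5 endothelial genes, 0.58 for 5 fibroblast genes and 0.58 for 5 cartilage genes. For 4 macrophage genes it was 0.42 and for 3 epidermal genes -0.47. Single genes of a list differed: among cartilage genes *acan* had 0.65, *col9a1* 0.10, *col2a1* 0.09, *matn1* -0.18 and *sox9* -0.27. Among the other skeletal muscle genes *srl* had 0.95, *ankrd1* 0.94, *smpx* 0.88 and *hspb1* 0.87. The rest of that list ran from -0.26 (*dmd*) to 0.73 (*trdn*). Endothelial genes ran from -0.22 (*kdr*) to 0.68 (*vwf*). In the smooth muscle and pericyte list *acta2*, the brightest on day 0, had 0.91, and the other genes ran from -0.10 (*pdgfrb*) to 0.39 (*cald1*). The value of that list is therefore not read as one of smooth muscle genes in general. The part of these lists in the spread was not tested.

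From 10 to 18 DPA 21 members, all of them striated genes, fell and 1, *myh11*, rose, against 3.75% and 2.56% of all probes. The largest decreases were in *myl1*, -4.39 ± 0.84, *pvalb*, -3.58 ± 0.78, and *tnni2*, the fast inhibitory troponin, -3.57 ± 0.68 (SE, limma adjusted p of at most 0.00212). Among the 25 striated genes that did not pass, *ldb3* had already reached 3.68 ± 0.35 and the thin filament cap *tmod1* 3.45 ± 0.24 at 10 DPA (SD, n = 10 each). In replicates 1 to 5 alone no member passed in either direction, with differences of similar size for *myl1* (-3.80), *pvalb* (-3.14), *ckm* (-2.88) and *myh11* (1.21). *cryab* passed with -0.92 ± 0.31 (SE, limma adjusted p = 0.0397), a call lost when any 1 of 12 arrays was left out, with values of -0.70 to -0.91.

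From 20 to 28 DPA no member passed by limma in either direction, against 0.978% and 0.449% of all probes that fell or rose. At an unadjusted p under 0.05, 4 of the 57 members were lower and 4 higher at 28 DPA. Of all probes 14.7% reached that p in either direction, so no excess is read from this count. The methods' t test at p of at most 0.01 called no member. *tpm1* had the largest difference, -1.13 ± 0.37 (SE, limma adjusted p = 0.125), and it passed with the replicate number or the set of replicates as a block. The largest in the other direction was that of *cryab*, 0.84 ± 0.31 (SE, limma adjusted p = 0.189). Against day 0, 45 members were still lower at 28 DPA and 3 were higher, where 8.31% and 10.7% of all probes fell and rose. For the palette, a stage after the late bud, the paper states that distal tip samples left out transcripts of proximal muscle and muscle progenitors. These decreases are therefore not read as the state of muscle in the whole limb. *tnnt3* measured 3.39 ± 0.32 and *pvalb* 3.99 ± 0.15 (SD, n = 9) at 28 DPA.

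Single late arrays nevertheless held high values of several members. At 24 DPA all 10 arrays of *myl1* lay between 3.69 and 4.37. In replicate 1 at 20 DPA 23 of the 42 genes that had fallen lay above their highest 24 DPA array, 13 of them by more than 1, with *myl1* at 8.77, *ttn* at 7.96, *pvalb* at 7.01 and *myl2* at 9.07. *des*, at 9.65, lay within its 24 DPA range in that array. In replicate 3 at 26 DPA 24 did so, 10 by more than 1, with *myl1* at 10.0, *ckm* at 9.55, *tnnc2* at 8.74 and *des* at 11.7. There *pvalb* was at 3.88 and *myl2* at 6.83, within their 24 DPA ranges of 3.50 to 4.62 and 6.76 to 8.10.

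At 28 DPA replicates 6 and 9 had 14 and 13 of these genes above their highest 24 DPA array, 4 and 3 of them by more than 1. Replicate 6 had *myl1* at 7.57, *ckm* at 8.26, *tnnc2* at 6.78 and *des* at 12.7, and replicate 9 had 7.27, 8.07, 6.19 and 11.9. The other 7 arrays had *myl1* at 3.83 to 4.23 and *ckm* at 4.26 to 5.05. In both arrays *pvalb* was at 4.17 and 3.91, *ttn* at 4.71 and 4.26 and slow *tnnc1* at 3.77 and 3.71. Of these 4 arrays, the one of 20 DPA alone had *pvalb* and *myl2* above their 24 DPA ranges. Other arrays had as many genes above their highest 24 DPA array as replicate 9 at 28 DPA, or more. At 16 DPA replicates 6 and 8 had 16 each, 7 of them by more than 1, and replicate 2 had 13, 2 by more than 1. Replicate 6 at 18 DPA had 16, 3 by more than 1, and replicate 2 at 20 DPA had 14, 3 by more than 1. The arrays described here were singled out after their values were seen, and they are described one by one and not compared as groups.

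The contrast with non-muscle isoforms of the same families was made within arrays. In 5 families the striated and the non-muscle or widely expressed isoform with the highest mean over all arrays were paired, and the change of their log2 difference from day 0 to 18 DPA was tested by a two-sided permutation test with 100000 resamples. All 5 differences moved towards the isoform classed as non-muscle or widely expressed. The change was -8.28 for *actn2* and *actn4*, -7.90 for *atp2a1* and *atp2a2*, -6.67 for *myl2* and *myl12b*, -5.17 for *myh7b* and *myh9*, and -2.26 for *tpm1* and *tpm3*. In each the p was 2e-05, the smallest the resamples can give, and 2e-05 adjusted over the 5 pairs. The *tpm3* probe of the tropomyosin pair itself fell, by 5.18 on the log2 scale. That pair therefore does not set a striated against a purely non-muscle signal. Nor does the SERCA pair, as *atp2a2* is also the pump of slow muscle. With the mean of all probes of each gene, the change of the SERCA pair was -3.83.

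**Figure D4:**
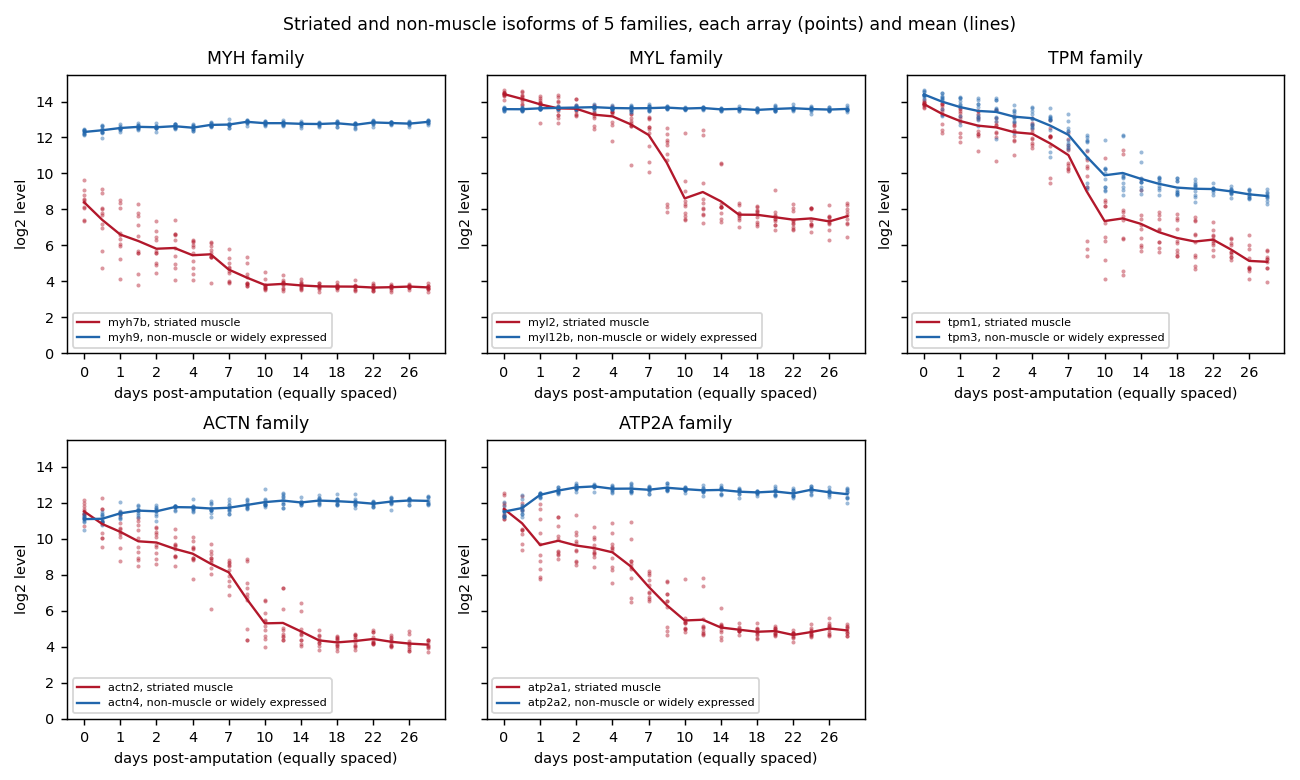
Log2 level of the striated isoform (red) and the non-muscle or widely expressed isoform (blue) with the highest mean over all arrays in each of 5 families at each time point (equally spaced); points are arrays and lines are means. Blue lines stay level or rise in 4 families, whereas in the tropomyosin family both fall.

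Of the 8 non-muscle or widely expressed members, 3 rose by 18 DPA, 2 fell and 3 did not pass. *actn1*, the alpha-actinin of stress fibers and focal contacts, ranged from 5.87 to 8.58 on day 0 and from 8.30 to 9.71 at 9 DPA, ranges that overlap. Its difference was 1.55 ± 0.29 at 9 DPA and 1.23 ± 0.28 at 18 DPA (SE, limma adjusted p = 1.58e-04 and 9.37e-04). *actn4*, the other non-muscle alpha-actinin, had arrays of 10.5 to 11.4 on day 0 and 11.9 to 12.5 at 18 DPA, which do not overlap, with a difference of 1.00 ± 0.10 (SE, limma adjusted p = 4.12e-08).

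An increase that passed at 2 DPA was that of *atp2a2*, the SERCA pump of slow muscle, heart and most other cells. Its day 0 arrays ran from 11.2 to 12.0 and its 2 DPA arrays from 12.6 to 13.1 without overlap, a difference of 1.35 ± 0.09 (SE, limma adjusted p = 5.97e-10). Over the same interval *atp2a1* of fast fibers went from 11.7 ± 0.54 to 9.62 ± 0.87 (SD, n = 10 each). At 28 DPA *atp2a2* was 0.97 ± 0.12 above day 0 (SE, limma adjusted p = 1.86e-06). With the mean of all its probes the differences were 0.38 at 18 DPA and 0.21 at 28 DPA, and in replicates 6 to 10 alone 0.51 at 28 DPA, and these did not pass. The third SERCA gene, *atp2a3*, known from blood and epithelial cells, rose late, from 10.7 ± 0.19 on day 0 to 11.1 ± 0.15 at 18 DPA and 11.5 ± 0.12 at 28 DPA (SD, n = 10, 10 and 9), and passed only at 28 DPA among the 5 comparisons with day 0 (0.86 ± 0.08, SE, limma adjusted p = 1.73e-08).

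Non-muscle myosin was measured by 3 members. *myh9*, the heavy chain of non-muscle myosin IIA, ran from 12.1 to 12.4 on day 0 and from 12.6 to 12.9 at 18 DPA. The ranges do not overlap, but its difference of 0.48 ± 0.06 (SE, limma adjusted p = 3.08e-07) was under the fold threshold. *myh10*, that of myosin IIB, fell by 1.60 ± 0.11 on the log2 scale (SE, limma adjusted p = 1.49e-10), from 10.8 ± 0.23 to 9.23 ± 0.28 (SD, n = 10 each). *myl12b*, a regulatory light chain of non-muscle myosin, measured 13.6 ± 0.08 on day 0 and 13.5 ± 0.07 at 18 DPA (SD, n = 10 each, limma adjusted p = 0.479), and its mean stayed between 13.5 and 13.7 at all 20 time points.

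The values of *tpm3* depended on the probe. This gene encodes both slow muscle and non-muscle tropomyosins. Its brightest probe, which has the _s suffix that Affymetrix gives to probes matching several transcripts, fell from 14.4 ± 0.15 to 9.21 ± 0.40 (SD, n = 10 each) by 18 DPA, and another of that kind from 11.2 to 4.18. Its only probe without the suffix measured 9.66 ± 0.75 and 10.0 ± 0.19, a difference of 0.35 ± 0.23 (SE, limma adjusted p = 0.231). With probes without the suffix the change of the tropomyosin pair was -7.81 and that of the SERCA pair -1.15, the *atp2a1* probe of that kind being at 3.38 on day 0.

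**Figure D5:**
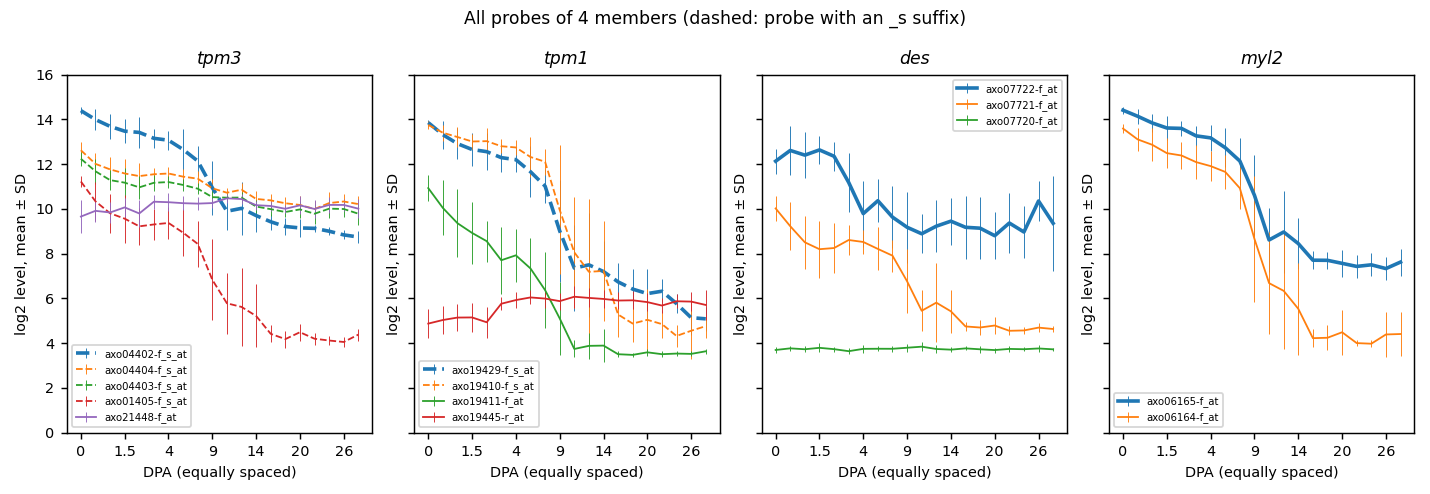
Mean log2 level ± SD of every probe of *tpm3*, *tpm1*, *des* and *myl2* at each time point (equally spaced); dashed lines are probes with an _s suffix and the thick line is the probe used for the gene. One *tpm3* probe and 1 *tpm1* probe stay level or rise while the others fall, and the *des* probes separate, the second falling below 5 where the brightest stays near 9.

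Other members with several probes showed such splits too. Of the 100 probes of all members, 76 fell and 4 rose from day 0 to 18 DPA. A *tpm1* probe rose by 1.04 ± 0.22 (SE, limma adjusted p = 5.66e-04), from 4.87 to 5.91, where its other 3 probes fell. For *des* the second probe fell from 10.0 to 4.70 by 18 DPA, a difference of -5.32 ± 0.19 against -3.00 ± 0.44 for the brightest (SE), and averaged 4.63 at 28 DPA, when the brightest reached 12.7 in 1 array.

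The smooth muscle myosin heavy chain *myh11* fell and then rose again. The median array stood at 8.59 before regeneration began, dropped to 6.22 by 10 DPA and was back at 7.73 by 18 DPA and 8.09 by 28 DPA. The decrease to 9 DPA was -1.56 ± 0.33 and the increase from 10 to 18 DPA 1.38 ± 0.27 (SE, limma adjusted p = 6.32e-04 and 7.95e-04), and at 28 DPA it was -0.59 ± 0.36 from day 0 (SE, limma adjusted p = 0.202). *myl9*, the light chain of smooth muscle, was dim on all arrays, with means of 4.41 to 4.67. The kinase *tnni3k* fell from 5.64 ± 0.49 on day 0 to 3.94 ± 0.11 at 18 DPA (SD, n = 10 each), with a difference of -1.05 ± 0.20 (SE, limma adjusted p = 2.18e-04) already at 2 DPA.

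Muscle genes outside the symbol rule were counted for comparison. Of 31 other skeletal muscle genes 21 had a probe, and 15 of them fell and none rose from day 0 to 18 DPA, with a median of -2.35. Among 7 regulators of muscle differentiation with a probe, *myf5* and *myog* fell. Earlier, *myog*, a factor that drives myoblasts to differentiate, had risen, by 1.06 at 0.5 DPA and 0.74 at 2 DPA on the log2 scale (limma adjusted p = 0.0087 and 0.015). Of 7 smooth muscle and pericyte genes 3 fell and 1 rose. The 3 were *acta2*, *cnn1* and *smtn*, with -8.39, -3.14 and -2.44, and the *acta2* probe has the _s suffix. Among markers of other cells over the same interval, 3 of 5 endothelial, 4 of 5 fibroblast and 2 of 2 Schwann cell genes fell, 1 of 4 macrophage, 3 of 3 epidermal and 1 of 5 cartilage genes rose. The summed level of the muscle genes outside the rule ran from 15.8 to 16.3 on day 0 and from 11.7 to 12.1 at 18 DPA, and that of the epidermal genes from 12.3 to 13.1 and from 13.8 to 14.2. Their part in the members' values was not tested.

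The 2 sets of replicates were also compared. A limma interaction of set and time passed for 2 members from 0 to 9 DPA, 3 from 0 to 18 DPA and 6 from 0 to 28 DPA, where 7.71%, 5.93% and 6.93% of all probes passed, and for none in the other 5 comparisons. *des* differed most: from day 0 to 28 DPA it changed by -4.38 in the first set and -0.80 in the second (difference 3.58, limma adjusted p = 0.0165). For *unc45b* the changes by 18 DPA were -1.89 and -3.05 (limma adjusted p = 0.012). The codes of both sets change between 2 and 3 DPA, so from day 0 to 9 or 18 DPA code and time cannot be told apart. The code of the second set changes again between 9 and 10 DPA, and those of both sets between 18 and 20 DPA. There the first set returns to its day 0 code and the second does not. From day 0 to 28 DPA code and time therefore cannot be told apart in the second set. Day 0 to 2, 3 to 9, 10 to 18 and 20 to 28 DPA each lie within 1 code per set.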

How the data were processed

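The authors hybridised biotin-labelled RNA to Amby002 GeneChips and normalised the arrays with RMA in Affymetrix Expression Console; the deposited log2 values of 20080 probes on 198 arrays were used as given. The number of arrays limits the precision. The 45 control probes were left out. Probe symbols came from the platform annotation. Time points were compared with limma 3.58.1 (R 4.3.3) on the 2 time points alone, with all 20035 probes and Benjamini-Hochberg adjustment; within-array isoform differences were tested by permutation (scipy 1.17.1). The limma step was tested on simulated data. Genes described singly were the brightest of each role on day 0, the 3 largest decreases and increases in each comparison and the non-muscle isoforms; others were chosen after their values were seen. The members and lists were chosen with earlier results of these data known. The 5 comparisons with day 0 share its arrays. Alternatives varied the fit, test, threshold, dim probe filter, scaling, blocks, replicate sets and probe choice.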

Additional observations from a re-analysis of the deposited data

Results flagged for a closer look

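Single arrays lay far from the rest of their time point for several members. Such a gap was found in 19 of the 160 groups of arrays examined, where chance would give about 1 in 20 for independent groups. The genes were measured on the same arrays and several moved together, so these groups are not independent. No excess over chance is read from the count. At 20 DPA replicate 1 was high for *myl1* (8.77, next 5.48), *ckm* (7.23, next 5.57), *pvalb* (7.01, next 5.18) and *tnnc2* (7.33, next 5.25). At 26 DPA replicate 3 was high for *myl1* (10.0, next 4.99), *ckm* (9.55, next 5.95) and *tnnc2* (8.74, next 4.97). At 10 DPA replicate 2 was high for *ckm* (12.3, next 8.68), *tpm3* (11.9, next 10.3) and *myh11* (7.69, next 6.53).

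The remaining gaps concerned 1 gene each in an array. *myl1* was high in replicate 6 at 18 DPA (5.10) and replicate 3 at 22 DPA (5.15). *cryab* was high in replicate 4 at 3 DPA (12.2) and replicate 10 at 9 DPA (10.1). *pvalb* was low in replicate 7 at 0.5 DPA (13.6) and replicate 1 at 2 DPA (12.6), *ckm* was low in replicate 3 at 4 DPA (12.5) and *myh11* in replicate 2 at 9 DPA (5.11). *tnni3k* was high in replicate 5 on day 0 (6.84).

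The change from day 0 differed between the sets of replicates by a limma interaction for *tnnc2* (0.71) and *tpm3* (0.67) at 18 DPA and for *atp2a2* (-0.86) at 28 DPA, each as replicates 6 to 10 minus replicates 1 to 5.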

How the results depend on the processing

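Counts from day 0 to 2, 9, 18 and 28 DPA kept their size for members that fell, at 43, 46, 46 and 45 with any 1 array left out, and at 32 to 44, 42 to 46, 42 to 46 and 41 to 45 under the other alternatives. From 3 to 9 DPA 39 to 42 fell with 1 array left out and 29 to 42 otherwise. At 0.5 DPA the 6 that fell became 12 in 1 fit of all arrays, 3 by the methods' t test after Benjamini-Hochberg, 1 at a log2 difference of at least 1, 1 in replicates 1 to 5 alone, 3 in replicates 6 to 10 alone, 11 without the arrays of conflicting labels and 3 to 16 with 1 array left out. The count that rose there, 0, was 1 with the set block, without the arrays of conflicting labels and in the replicate block, and 0 to 1 with 1 array left out. At 2 DPA the 1 that rose became 2 in 1 fit of all arrays, with arrays centred on their medians, with the set block, in replicates 6 to 10 alone and in the replicate block, and 1 to 2 with 1 array left out (2 without day 0 replicate 7 or 2 DPA replicate 4). At 9 DPA 3 to 5 rose with 1 array left out (5 without day 0 replicate 8 or 9 DPA replicate 5). At 28 DPA the 3 that rose became 1 at a log2 difference of at least 1 and 5 with centred arrays. From 10 to 18 DPA 0 fell and 0 rose in replicates 1 to 5 alone, and 17 to 22 fell with 1 array left out. From 20 to 28 DPA 1 member, *tpm1*, fell with the replicate block and with the set block. Deviations of same-numbered arrays had median correlations of -0.031 to 0.064 over the comparisons, with single values from -0.318 to 0.289. No pairing by replicate number was seen in these values. The causes were not tested.

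Single genes turned direction mostly where the difference was near 0. With its probe without the _s suffix *tpm3* differed from day 0 by 0.26, 0.14, 0.60, 0.35 and 0.35 at 0.5, 2, 9, 18 and 28 DPA. With the mean of all probes *des* gave -0.081 at 0.5 DPA and -0.21 from 10 to 18 DPA, and *myl1* -0.10 from 20 to 28 DPA. From 20 to 28 DPA replicates 1 to 5 alone gave -1.42 for *myl1*, -0.87 for *ckm* and -0.72 for *tnnc2*, and replicates 6 to 10 alone -0.066 for *tnni3k*. In the same comparison leaving out 1 array gave -0.23 to 0.58 for *myl1*, -0.051 to 0.53 for *ckm*, -0.13 to 0.34 for *tnnc2* and -0.018 to 0.081 for *tnni3k*. From 3 to 9 DPA replicates 6 to 10 alone gave 0.013 for *myh11* and -0.054 for *atp2a3*. At 0.5 DPA replicates 1 to 5 alone gave 0.014 for *pvalb*, and leaving out 1 array gave -0.31 to 0.022 for *myh11*. Of the values of single genes under the alternatives, 3106 kept direction and side of the threshold, 75 lost the call, 21 gained it and 25 turned. Leaving out single arrays and using probes without a suffix were chosen after seeing the data. The isoform differences kept direction and threshold throughout. Very bright and very dim probes limit what can be measured.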
